A study of Homo sapiens with 12 samples.

Results

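The replication-dependent histone genes were taken as the protein-coding genes of the GENCODE hg38 annotation whose symbols are H2AC, H2BC, H3C or H4C followed by a number, or H1-1 to H1-6. This gave 69 of 20046 protein-coding genes, of which 55 lie in the cluster on chromosome 6, 11 in the cluster on chromosome 1, and 3 elsewhere. ChIP-seq of the histone variant H2A.Z and of its acetylated form, H2A.Zac, had been carried out in K562, a human chronic myeloid leukemia cell line, to ask how the loss of TRRAP from the TIP60 complex changes both marks. In both lines the endogenous EP400, the scaffold subunit of TIP60, carried a dTAG degron, and the cells had received 500 nM dTAGV-1 for 24 h. One line expressed exogenous WT EP400 and the other expressed exogenous Delta-TRRAP EP400 (ΔTRRAP), which lacks the part that holds TRRAP, and each line was 1 isogenic clone, so a difference between the lines cannot be told apart from a difference between the clones. There were 12 libraries, namely 2 biological replicates each of input, H2A.Z and H2A.Zac in each line.

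The data are lists of regions that the authors made after merging the replicates. For each mark, a region was listed as lost (higher in WT), as gained (higher in ΔTRRAP) or as unchanged, and its score is the log10 of the likelihood ratio between the lines, which was at least 3 in the lost and gained lists. A higher score means that the data favor a difference more strongly, and it is not a fold change. The lists hold 63442 H2A.Z regions (12592 lost, 8965 gained and 41885 unchanged) and 94586 H2A.Zac regions (24482 lost, 24844 gained and 45260 unchanged). They give no value per replicate and no read count, so depth is unknown, no spread can be given and no test was made. Gained and lost are the classes of the lists throughout. A gene without a listed region is not shown to lack the mark, since the lists hold only regions that passed the filter for reproducible peaks.

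Replication-dependent histone genes supply the core histones H2A, H2B, H3 and H4 and the linker histone H1 that package newly copied DNA, and they are transcribed chiefly in S phase. They have no introns, their mRNAs end in a stem-loop in place of a poly(A) tail, and NPAT, FLASH and SLBP serve their transcription and processing at histone locus bodies. Many H2A and H2B genes lie head to head and share a promoter. H2A.Z itself is encoded elsewhere, by genes that are active throughout the cell cycle. All 69 genes had a 1-exon canonical transcript, 386 to 2224 bp long, although 15 of them are annotated with a gene length over 3 kb because of longer isoforms.

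On chromosome 6, gained H2A.Zac was the usual state of a histone gene with any H2A.Zac region. With 1 kb added at either end of the gene, 38 of the 55 genes (69.1%) had a gained H2A.Zac region, against 50.6% of all protein-coding genes, and 3 genes (5.45%) had a lost one, against 34.5%. All 3 of these genes also had a gained region. H2AC17 had an unchanged H2A.Zac region only, and the other 16 genes (29.1%) had no listed region of either mark. The histone genes are short, with a median interval of 2500 bp against 29400 bp for all protein-coding genes, so that the genome-wide shares over whole genes come from longer stretches. With the same 1 kb to each side of the TSS for every gene, 36 of the 55 genes (65.5%) had gained H2A.Zac, against 36.6% of protein-coding genes, and 2 (3.64%) had lost H2A.Zac, against 16.6%. The share of chromosome 6 genes with an H2A.Zac region of any class near the TSS was 69.1%, close to the 63.9% of all genes. The shares of the classes were further apart. Of the 38 chromosome 6 genes with an H2A.Zac region near the TSS, 36 (94.7%) had a gained one, against 57.3% over all genes with such a region. Over the wider interval, with 1 kb at either end of the gene, this was 38 of 39 (97.4%), against 65.2%.

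**Figure D1:**
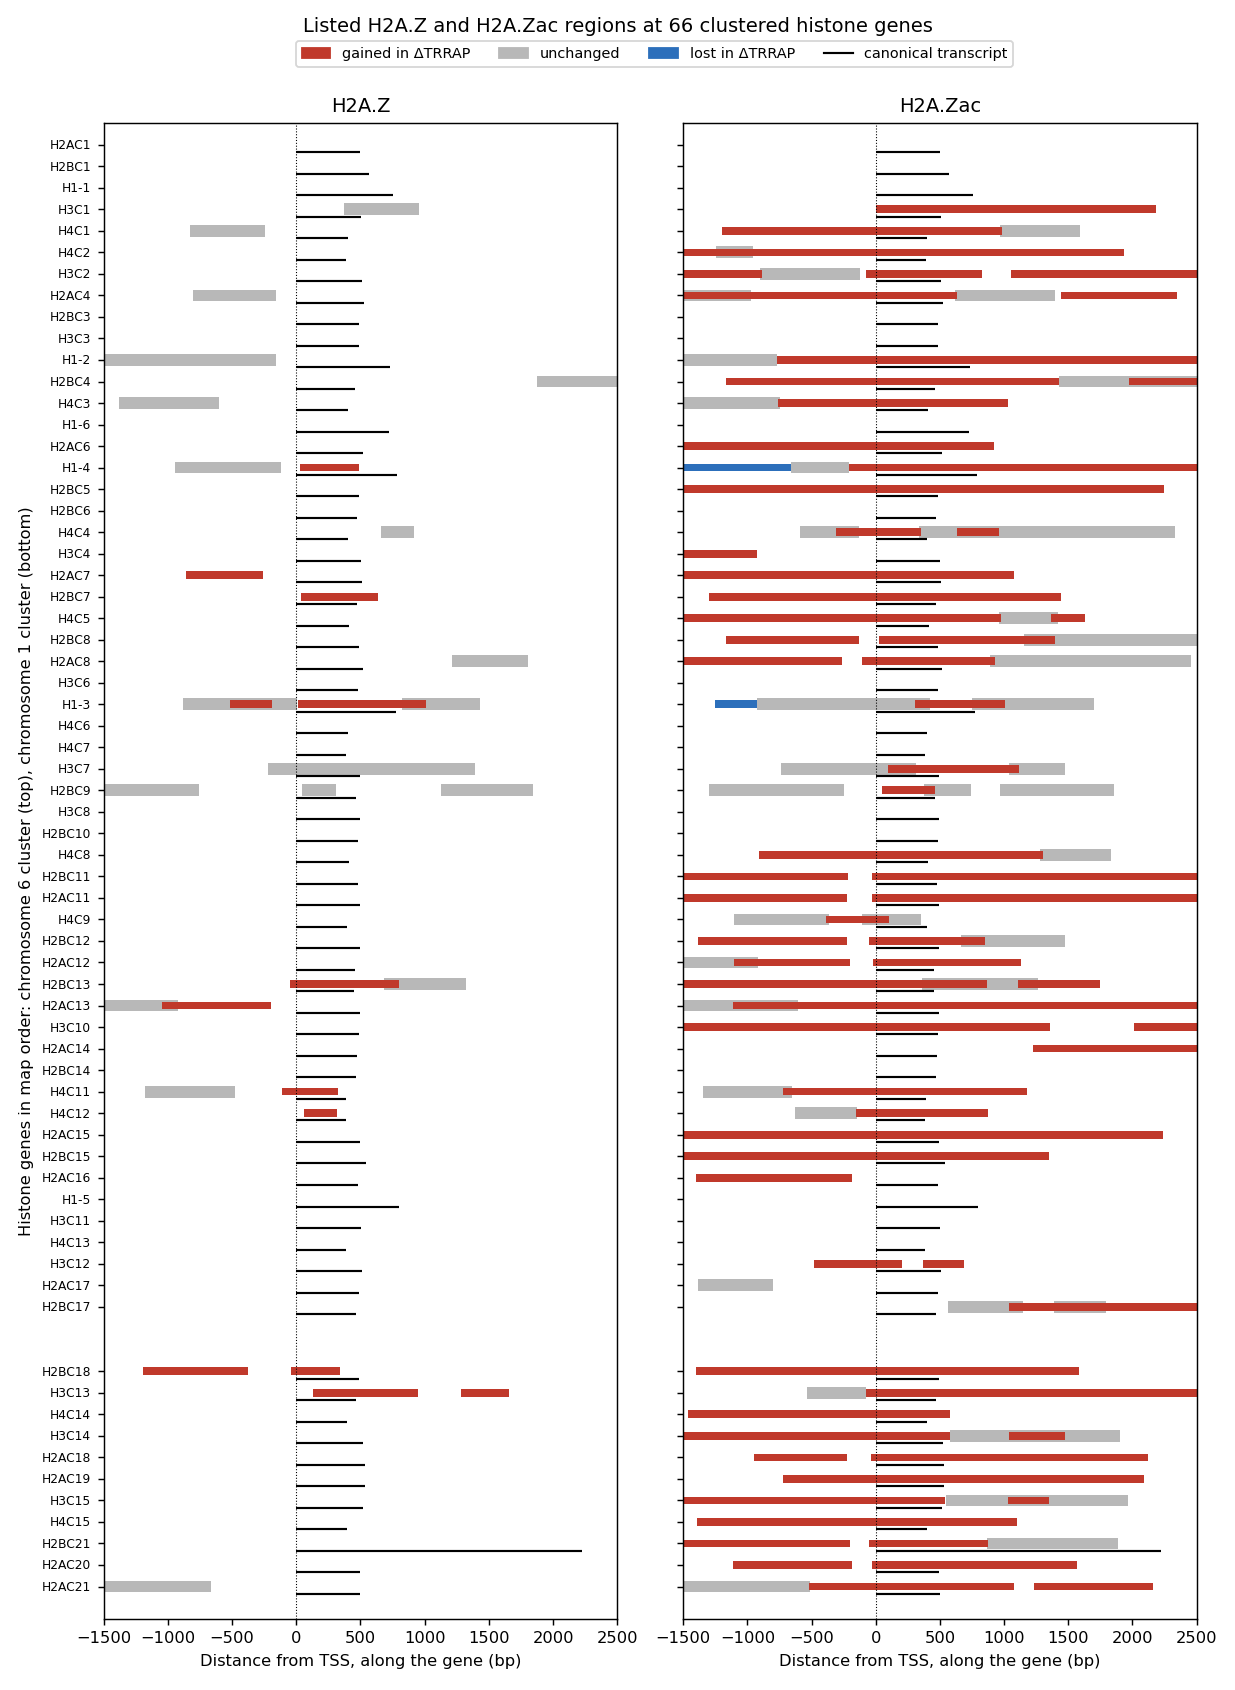
Listed H2A.Z (left) and H2A.Zac (right) regions at the 66 clustered histone genes, in map order from top to bottom, with distance from the TSS in bp along the direction of transcription on the x axis, drawn for regions that overlap the gene or the 1 kb at either end. Red, blue and gray bars are gained, lost and unchanged regions, and black lines are canonical transcripts. Red bars fill the H2A.Zac panel at most genes, while the H2A.Z panel is blank at many of the same genes.

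The histone genes are packed closely, and neighbors often counted the same region. On chromosome 6 there were 38 distinct gained H2A.Zac regions, 17 of which were shared by more than 1 histone gene. Their median width was 1190 bp (range, 272 to 5700 bp), against 664 bp for all gained H2A.Zac regions, and their median score was 10.4 (range, 3.58 to 28.6), against 6.87. There were 4 distinct lost H2A.Zac regions, so that 38 of 42 changed regions (90.5%) were gained, against 50.4% of the 49326 changed H2A.Zac regions in the genome. These regions held 67170 bp gained and 1895 bp lost, sums for which no genome-wide value was calculated. Around the genes the classes were nearer to even. Outside the histone gene intervals, the same 5 Mb of chromosome 6 (25 to 30 Mb) held 108 gained and 131 lost H2A.Zac regions, a gained share of 45.2%. This share and the 50.4% of the genome pool regions near a TSS with regions far from any, so they are not like for like. Within 1 kb of the TSS, 7342 of all protein-coding genes had gained and 3336 had lost H2A.Zac.

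The highest score was at the pair H2BC8 and H2AC8, which encode an H2B and an H2A. A gained region of 1035 bp over H2AC8 (chr6:26216817-26217851) had a score of 28.6, and a second gained region of 1367 bp over H2BC8 (chr6:26215293-26216659) had a score of 12.2. A single gained region of 2748 bp (chr6:26198214-26200961), with a score of 17.2, covered both H2AC7 and H2BC7, another such pair, and came within 1 kb of the H3 gene H3C4, whose own transcript it did not reach. H4C12, which encodes H4, had a gained region of 1033 bp with a score of 17.1, and H1-2, a linker histone gene, had one of 3723 bp with a score of 17.0. Wide regions such as these reached past the short histone transcripts. The widest, at 5698 bp, ran across the H4 gene H4C2 with a score of 13.2.

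Lost H2A.Zac at the chromosome 6 genes lay away from the transcripts. At H1-4, a linker histone gene, the lost region had a score of 19.6 and lay from 1619 to 663 bp before the TSS, and it was followed by an unchanged region and then, from 209 bp before the TSS to 4035 bp after it, by a gained region with a score of 16.2. H1-3 had the same order, with a lost region of score 5.69 from 1251 to 924 bp before the TSS and a gained one of score 7.31 from 308 to 1009 bp after it, past the end of the transcript. At the third, H2BC4, both lost regions (scores of 4.78 and 6.72) lay at 35252 and 22391 bp after the TSS, in a long isoform, the first of them within 1 kb of the TSS of the neighboring gene HFE, and the gained region over its TSS had a score of 15.1. None of the 55 canonical transcripts overlapped a lost region of either mark. Lost regions are rare at such positions in any gene, and the 0 is near their shares. Lost H2A.Zac covered the base 100 bp after the TSS in 4.27% of all protein-coding genes, and lost H2A.Z in 1.59%. Gained H2A.Zac overlapped 34 of the 55 transcripts, of which 33 were covered over at least 50% of their length and 26 in full. The same measure was not made for all genes. At the base 100 bp after the TSS, gained H2A.Zac covered 60.0% of the chromosome 6 genes, against 20.5% of all protein-coding genes.

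The position of gained H2A.Zac along the chromosome 6 genes was not even. It covered the base 300 bp before the TSS in 28 of the 55 genes (50.9%), the base 100 bp before it in 24 (43.6%), the TSS in 29 (52.7%) and the base 100 bp after it in 33 (60.0%). The low point just before the TSS was also seen over all protein-coding genes, at lower shares of 16.7%, 15.0%, 17.5% and 20.5% at the same positions. Where histone genes lie head to head, the bases before the TSS of a gene can lie in its partner. A gap between the partners can also count for both. At the chromosome 1 genes the shares were 90.9% (10 of 11) at 300 bp and 63.6% (7 of 11) at 100 bp before the TSS. At the TSS and at 100 bp after it the share was 100%. The genes covered at 300 bp but not at 100 bp before the TSS were H2BC21, H2AC20 and H2AC18. H2BC21 and H2AC20 lie head to head and count the same gap, and H2AC18 has a near-identical copy, described further on. The fall thus rests on few gaps.

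**Figure D2:**
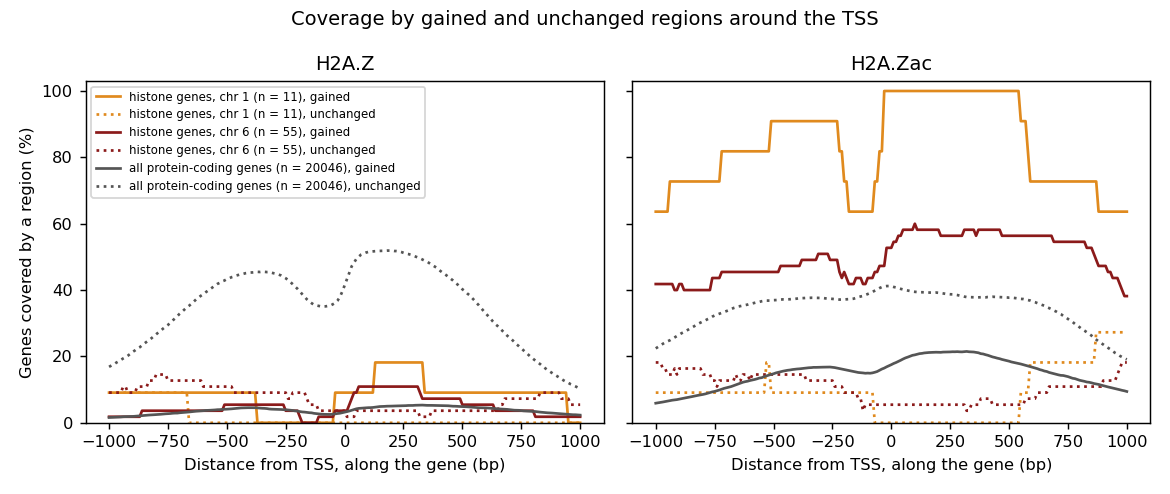
Share of genes (%) whose base at each distance from the TSS (x axis, bp) lies in a listed region, for histone genes on chromosome 6 (n = 55), histone genes on chromosome 1 (n = 11) and all protein-coding genes (n = 20046), by mark and class. Gained H2A.Zac stood at 60.0% of the chromosome 6 genes and 100% of the chromosome 1 genes at 100 bp after the TSS, against 20.5% of all genes.

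H2A.Z was listed at far fewer of these genes than H2A.Zac. Near the TSS, 16 of the 55 chromosome 6 genes (29.1%) had an H2A.Z region of any class, against 62.2% of all protein-coding genes. Gained H2A.Z was found at 8 genes (14.5%), against 13.9% over all genes, and lost H2A.Z at 0, against 6.53%. The share with gained H2A.Z was thus near the background. With 1 kb at either end of the whole gene, the counts were again 8 gained, against a background of 21.4%, and 1 lost, against 16.0%. The lost region, with a score of 5.53, lay 34314 bp after the TSS of H2BC4 in the same long isoform as above, so that H2BC4 had lost H2A.Z in its annotated length and gained H2A.Zac at its TSS.

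All 8 chromosome 6 genes with gained H2A.Z also had gained H2A.Zac, as did 2204 of the 2777 protein-coding genes with gained H2A.Z near the TSS, so that this was the usual state in the genome as well. H1-4 had the highest H2A.Z score, 10.5, in a region of 462 bp from 29 to 490 bp after the TSS, inside the coding transcript. H1-3 followed with a region of 996 bp and a score of 9.74 that began 12 bp after the TSS. H2AC7 and H2BC7 shared a gained H2A.Z region with a score of 8.59, and H2BC13 and H2AC13, another H2A and H2B pair, shared one with a score of 7.01. The other genes of this kind were H4C11 and H4C12, at 6.9 and 6.64. These H2A.Z regions numbered 7 in all, with scores from 3.52 to 10.5, against a genome-wide median of 5.48 for gained H2A.Z. Of the 8 changed H2A.Z regions on chromosome 6, 7 (87.5%) were gained, against 41.6% in the genome and 63.1% in the rest of the same 5 Mb. The 41.6% and 63.1% pool regions near a TSS with regions far from any, and 8 regions are few. Within 1 kb of the TSS, 2777 of all protein-coding genes had gained and 1309 had lost H2A.Z.

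Many of the genes with gained H2A.Zac had no listed H2A.Z region at all. Near the TSS this was so for 20 of the 36 chromosome 6 genes with gained H2A.Zac (55.6%) and for 8 of the 11 on chromosome 1 (72.7%), but for 453 of 7342 protein-coding genes (6.17%). The 8 on chromosome 1 were the 6 genes with near-identical copies, described further on, and the pair H2BC21 and H2AC20, which share their gained regions. They are thus not 8 separate cases. A further 8 of the 36 chromosome 6 genes (22.2%) had unchanged H2A.Z only, against 61.1% of protein-coding genes with gained H2A.Zac. Acetylated H2A.Z is a form of H2A.Z, and the lists record which regions passed the filters with each antibody, not the amount of either form. Whether the antibodies or the depth of the libraries differed at these genes was not tested. The same share was 1 of 10 among the neighboring genes of the chromosome 6 cluster, described further on.

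**Figure D3:**
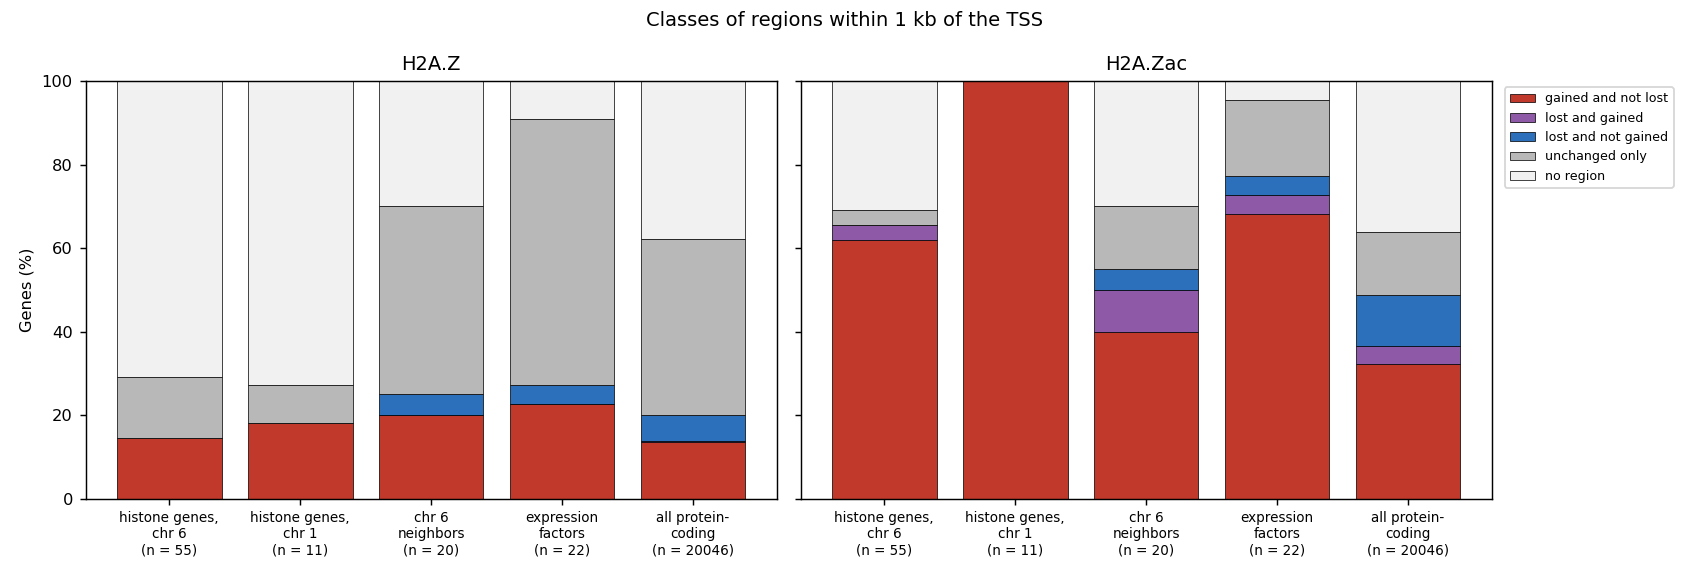
Share of genes (%) in each class of regions within 1 kb of the TSS, for H2A.Z (left) and H2A.Zac (right), in histone genes on chromosome 6 and chromosome 1, their chromosome 6 neighbors, genes for histone gene expression factors and all protein-coding genes. No region was listed for H2A.Z at most histone genes, while gained H2A.Zac was listed at 65.5% of those on chromosome 6 and 100% of those on chromosome 1.

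The chromosome 1 genes (149782689 to 149887965) were uniform in H2A.Zac. All 11 had gained H2A.Zac within 1 kb of the TSS (against 36.6% of all protein-coding genes) and over the TSS itself, 10 canonical transcripts were covered in full, and none overlapped a lost region. They shared 11 distinct gained regions, with a median width of 1600 bp and a median score of 10.8 (range, 4.03 to 14.5). Scores did not reach those of the highest chromosome 6 genes. H4C15, an H4 gene, had the highest at 14.5, H2BC18 and the H3 gene H3C13 shared a region of 2980 bp with 13.5, and H3C14 and H2AC18 had a top score of 13.1. That region also fell in the long annotation of H4C14, 7971 bp or more from its TSS, while the region over the H4C14 TSS had a score of 11.5. The 3 distinct lost regions, with scores of 4.53 to 5.02, all lay over the long isoform of H2BC18, at 15333 bp or more from its TSS. Near the TSS 0 of the 11 genes had lost H2A.Zac, against 16.6% of all genes, and 11 genes are too few to tell this from the background. H2A.Z was listed near 3 of the 11 TSSs (27.3%), against 62.2% of all genes, and gained H2A.Z near 2 (18.2%), against 13.9%. It was listed as a gained region near both H2BC18 and H3C13 (score of 5.55), a second gained region near H2BC18 (9.7) and as an unchanged region at the H2A gene H2AC21. Outside the gene intervals, the 5 Mb of chromosome 1 that end at 150 Mb held 104 gained and 87 lost H2A.Zac regions, a gained share of 54.5%, and 34 gained and 43 lost H2A.Z regions, a share of 44.2%.

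The chromosome 1 cluster holds near-identical copies, and reads from such copies cannot be assigned to 1 of them with confidence. Of the 100-base words of the gene and its 1 kb flanks, 100% of those of H3C14 and H3C15 occur elsewhere in hg38, as do 97.39% for H4C14, 97.35% for H4C15, 90.18% for H2AC18 and 90.14% for H2AC19. The gained regions at these 6 genes should be read as those of the repeated unit. Each of the other 5 chromosome 1 genes, with shares of at most 48.52% (H2BC18), also had gained H2A.Zac. On chromosome 6 the highest share was 12.85%, at H4C12.

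The families were then read apart over the gene and its 1 kb flanks, where 50.6% of all protein-coding genes had gained H2A.Zac. That share comes from longer stretches, and within 1 kb of the TSS it was 36.6%. The genes of each family are too few to set the families apart by their counts. On chromosome 6, gained H2A.Zac was listed at 10 of 12 H2A genes and 10 of 15 H2B genes. It was also listed at 6 of 10 H3 genes, 9 of 12 H4 genes and 3 of 6 H1 genes. The median of the highest score of each gene was 13.8, 14.1, 10, 12.7 and 16.2. These highest scores ran from 5.23 to 28.6 in H2A, 6.38 to 28.6 in H2B, 6.04 to 17.2 in H3, 4.93 to 17.1 in H4 and 7.31 to 17.0 in H1 genes, so the families overlapped. Neighbors can count the same region here. The 28.6 of H2B is the region over H2AC8, while the region over the H2BC8 transcript had 12.2. The 17.2 of H3 is the region of H2AC7 and H2BC7, which did not reach the H3C4 transcript. The lowest were those of the H4 gene H4C9, 4.93, and of the H2A gene H2AC14, 5.23, whose region lay past the end of its transcript. Among the linker genes, H1-2, H1-3 and H1-4 had gained H2A.Zac, and H1-1, H1-5 and the testis gene H1-6 had no listed region. Gained H2A.Z was listed at 2 genes each of H1, H2A, H2B and H4 and at 0 H3 genes on chromosome 6, although the H3 gene H3C13 on chromosome 1 had it. With 21.4% of all protein-coding genes at gained H2A.Z, these counts are too small to set the families apart. On chromosome 1 the medians were 11.5 for the 4 H2A genes, 12.5 for the 2 H2B genes, 13.1 for the 3 H3 genes and 13.8 for the 2 H4 genes, counting the distant region of H4C14.

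**Figure D4:**
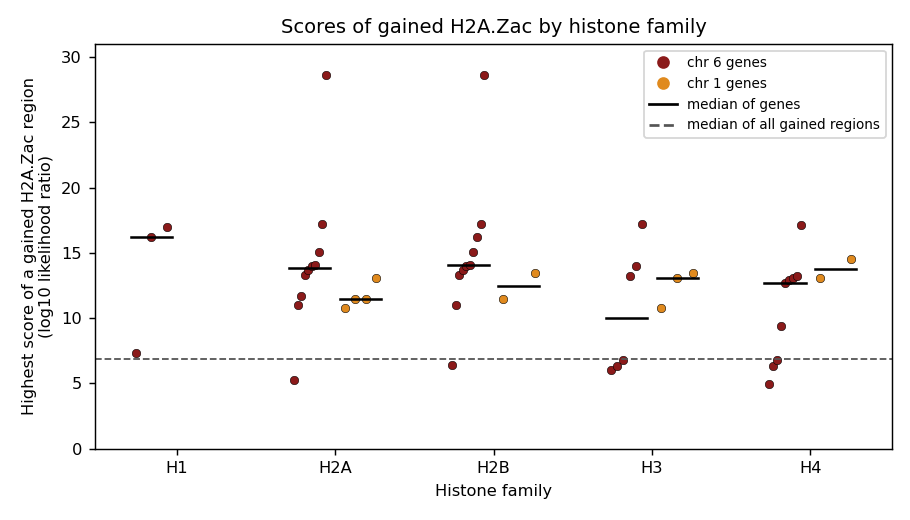
Highest score (log10 likelihood ratio) of a gained H2A.Zac region at each clustered histone gene that had one, by family, with chromosome 6 genes in dark red and chromosome 1 genes in orange, and solid lines at the medians. The broken line is the median of all gained H2A.Zac regions, 6.87. H2AC8 and H2BC8, both counted with the region over H2AC8, stand alone at 28.6.

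Along chromosome 6 the genes fell into 4 groups parted by gaps of more than 250 kb. The first, H2AC1 and H2BC1 (25723397 to 25727345), had no listed region, and both are expressed mainly in testis. Over all protein-coding genes, 50.6% had gained H2A.Zac in the same interval and 20.1% had no region of either mark. The second, from H1-1 to H4C8 (26017032 to 26285638), held 32 genes, of which 22 had gained H2A.Zac and 10 had no region. All 5 genes of the third, from H2BC11 to H2AC12 (27125897 to 27147562), had gained H2A.Zac and none had gained H2A.Z. With 1 kb at either end of the gene, 21.4% of all protein-coding genes had gained H2A.Z. A group of 5 genes is too small to tell the absence of listed gained H2A.Z from that share. The fourth, from H2BC13 to H2BC17 (27807479 to 27893891), held 16 genes, with gained H2A.Zac at 11 and no region at 4. The groups of 32 and 16 genes thus held genes with and without regions. In families, the 16 genes without a region were 5 H2B, 4 H3, 3 H4, 3 H1 genes and 1 H2A gene.

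The genes outside the clusters differed from one another. H2AC25 and H2BC26, an H2A and H2B pair on chromosome 1 at 228457873 and 228458103, shared a gained H2A.Zac region with a score of 5.26 and a gained H2A.Z region with a score of 5.08. Both also had a lost H2A.Zac region, with scores of 15.5 at 17979 bp after the TSS of H2AC25 and 5.38 at 5767 bp after that of H2BC26. The H2BC26 TSS itself lay in unchanged regions of both marks. H4C16, an H4 gene on chromosome 12, had no listed region.

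Divergent pairs, with TSSs facing away from each other and at most 1 kb apart, allowed the shared promoter to be viewed on its own. There were 11 on chromosome 6, with 193 to 978 bp between the TSSs (median, 243 bp), and 1 in the chromosome 1 cluster, H2BC21 and H2AC20, with 235 bp. In 8 of the 11 pairs both transcripts lay on gained H2A.Zac, and in the other 3 (H2AC1 and H2BC1, H2AC14 and H2BC14, and H2AC17 and H2BC17) neither did. No share over other divergent pairs of the genome was calculated, so the counts of pairs have no background of their own. Over all single protein-coding genes, gained H2A.Zac covered the TSS in 17.5%. Outside the clusters, the pair H2AC25 and H2BC26, with 229 bp between the TSSs, had the H2AC25 transcript on gained H2A.Zac and the H2BC26 transcript not. In 4 of the 8 pairs a single gained region ran over both TSSs and the whole stretch between them, as at H2BC4 and H2AC6 with a score of 15.1. In the other 4, and at the chromosome 1 pair, a separate gained region lay over each gene and part of the stretch between the TSSs was in neither. At H2BC8 and H2AC8 this gap was 128 bp (chr6:26216689-26216816), at H2BC11 and H2AC11 191 bp (chr6:27132823-27133013), at H2BC12 and H2AC12 174 bp (chr6:27146907-27147080) and at H2BC21 and H2AC20 151 bp (chr1:149886735-149886885). The fifth, H3C7 and H2BC9, had its whole 978 bp outside gained H2A.Zac. The 4 short gaps are printed here because they are the DNA from which the gained regions of the paired genes part, together with the whole stretch of 214 bp between the TSSs of the testis pair H2AC1 and H2BC1 (chr6:25726563-25726776), which had no region. All are the plus strand of hg38, with the octamer ATTTGCAT, the CCAAT box and the TATA box TATAAA in capitals on either strand.
H2BC8|H2AC8: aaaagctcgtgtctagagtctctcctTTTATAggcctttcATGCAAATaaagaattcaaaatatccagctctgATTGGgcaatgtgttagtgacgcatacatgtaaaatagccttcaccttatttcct
H2BC11|H2AC11: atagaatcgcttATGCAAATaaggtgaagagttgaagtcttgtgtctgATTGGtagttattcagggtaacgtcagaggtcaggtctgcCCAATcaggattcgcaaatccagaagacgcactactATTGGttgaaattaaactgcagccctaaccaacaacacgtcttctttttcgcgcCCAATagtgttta
H2BC12|H2AC12: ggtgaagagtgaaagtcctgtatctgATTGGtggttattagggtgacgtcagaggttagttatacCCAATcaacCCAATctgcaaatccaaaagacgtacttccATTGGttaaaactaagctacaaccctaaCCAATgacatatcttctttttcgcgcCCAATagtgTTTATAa
H2BC21|H2AC20: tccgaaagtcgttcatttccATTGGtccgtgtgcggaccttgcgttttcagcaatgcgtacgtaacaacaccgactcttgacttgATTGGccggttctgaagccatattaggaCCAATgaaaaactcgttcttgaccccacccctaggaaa
H2AC1|H2BC1: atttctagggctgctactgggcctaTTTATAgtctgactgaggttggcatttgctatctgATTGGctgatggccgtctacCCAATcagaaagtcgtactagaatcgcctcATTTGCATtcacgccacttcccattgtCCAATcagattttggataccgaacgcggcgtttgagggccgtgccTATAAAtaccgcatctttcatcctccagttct

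The gaps held promoter elements. They are only the uncovered part of each shared promoter, so an element missing from a gap can lie beside it, and the promoters of H2BC11, H2AC11, H2BC12, H2AC12, H2BC21 and H2AC20 all hold ATTTGCAT, CCAAT and TATAAA. Those of H2BC8 and H2AC8 and of H2BC11 and H2AC11 each had 1 octamer, with 1 and 4 CCAAT boxes, and the first also had 1 TATAAA. That of H2BC12 and H2AC12 had 6 CCAAT boxes and 1 TATAAA and no octamer, and that of H2BC21 and H2AC20 had 3 CCAAT boxes and neither of the others. The whole stretch of the testis pair, with no listed region, had 1 octamer, 3 CCAAT boxes and 2 TATAAA, so these letters were present with and without gained H2A.Zac. The G and C content was 37.5%, 42.4%, 39.7% and 48.3% in the gaps, in the order printed, and 47.7% in the testis stretch.

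**Figure D5:**
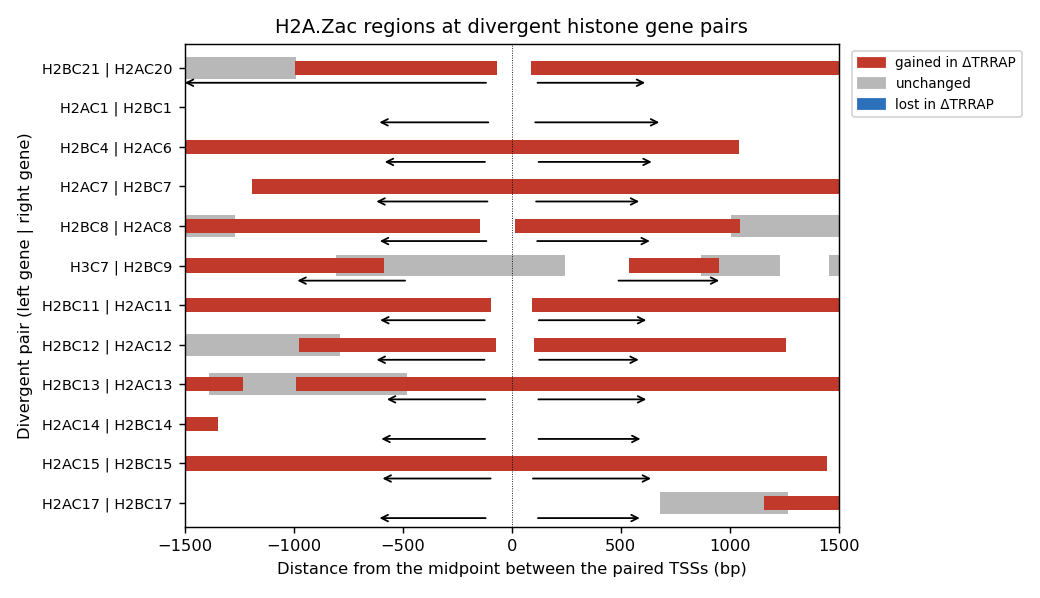
H2A.Zac regions at the 12 divergent pairs of the clusters, with distance from the midpoint between the paired TSSs in bp on the x axis and arrows for the transcripts, cut at the edge of the plot for H2BC21. Red, blue and gray bars are gained, lost and unchanged regions. No lost region falls in the drawn windows, single red bars run across the middle in 4 pairs, and red bars part at the middle in 5.

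Unpaired genes have their own promoters, and 2 are shown because their genes had gained regions of both marks. These are the 250 bases before the TSS of the linker gene H1-4 (chr6:26156079-26156328, plus strand) and of the H4 gene H4C12 (chr6:27831561-27831810, minus strand), with the same motifs in capitals. At H1-4 the gained H2A.Zac region entered the last 209 bases, and at H4C12 the last 155.
H1-4: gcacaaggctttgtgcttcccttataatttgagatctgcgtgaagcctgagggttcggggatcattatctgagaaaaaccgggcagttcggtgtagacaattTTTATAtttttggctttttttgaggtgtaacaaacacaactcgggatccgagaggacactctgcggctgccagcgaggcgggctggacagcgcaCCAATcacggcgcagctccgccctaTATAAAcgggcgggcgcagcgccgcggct
H4C12: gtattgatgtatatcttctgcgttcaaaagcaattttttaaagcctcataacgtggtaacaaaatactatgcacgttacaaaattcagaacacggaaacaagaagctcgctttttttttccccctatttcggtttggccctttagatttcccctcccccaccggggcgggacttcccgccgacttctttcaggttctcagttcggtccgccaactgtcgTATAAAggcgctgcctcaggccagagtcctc

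Over all promoters, from 250 bases before to 50 after the TSS and on both strands, ATTTGCAT was found in 22 of the 55 chromosome 6 genes (40.0%), CCAAT in 48 (87.3%) and TATAAA in 37 (67.3%), against 1.62%, 36.1% and 9.71% of the 20046 protein-coding genes. The E-box CACGTG was in 0 of the 55, against 8.75%. On chromosome 1 the shares were 36.4%, 81.8% and 72.7%, with 0 for CACGTG. The octamer, which octamer factors such as POU2F1 bind, was in 14 of 18 H2B and 12 of 17 H2A promoters and in 0 of those of H1, H3 and H4. CCAAT was in all H1, H2A, H2B and H3 promoters and in 5 of 15 H4 promoters. The promoters of paired genes overlap, so their motifs are counted in both. Among the 66 clustered genes, the 49 with gained H2A.Zac and the 17 without had ATTTGCAT in 38.8% and 41.2%, CCAAT in 83.7% and 94.1%, and TATAAA in 71.4% and 58.8%. The motifs did not separate genes with gained H2A.Zac from those without.

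The 20 other protein-coding genes between the first and the last chromosome 6 histone gene, among them butyrophilin, zinc finger and SLC17 transporter genes, give a background from the same stretch. Near their TSSs, 10 (50%) had gained and 3 had lost H2A.Zac, against 36.6% and 16.6% of all protein-coding genes, and 14 had an H2A.Z region of any class. Within 1 kb of the TSS, the highest gained H2A.Zac score among them was 17.2, at ENSG00000282988, through the region it shares with H2AC7 and H2BC7. Next in this window was 12.1 at the zinc finger gene ZNF184. HFE, BTN2A2 and HMGN4 were the genes with lost H2A.Zac in the same window, with scores of 4.78, 6.9 and 3.85. Over the gene and its flanks, POM121L2 had gained H2A.Zac with 16.0, and BTN3A2 (5.58) and POM121L2 (5.57) also had lost H2A.Zac. There was no such neighbor in the chromosome 1 cluster.

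The genes whose products serve histone gene expression were read in the same way, for a list of 22 that were all found. Near the TSS, 16 (72.7%) had gained H2A.Zac, against 65.5% of the chromosome 6 histone genes and 36.6% of all protein-coding genes, and 2 had lost it, against 16.6%. Unlike the histone genes, 20 of the 22 had an H2A.Z region, and 1 of the 16 with gained H2A.Zac (6.25%) had none. NPAT, the coactivator of histone genes at histone locus bodies, had gained H2A.Zac with a score of 6.32 and gained H2A.Z with 5.76. For SLBP, which binds the stem-loop, the scores were 4.06 and 6.25, and for LSM11, a part of the U7 snRNP that cuts histone pre-mRNA, 6.62 and 7.49. ZNF473, another factor of histone pre-mRNA processing, had the highest gained H2A.Zac score of the list near the TSS, 18.4. COIL, which encodes coilin, had a gained (6.84) and a lost (15.5) H2A.Zac region, and CSTF2, a cleavage factor, had a lost (5.38) and an unchanged one. Gained H2A.Z was also listed at CSTF2T (5.15) and CPSF2 (4.35), and lost H2A.Z at E2F1 (5.19).

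The label of the cells was checked against marker genes. An H2A.Zac region lay near the TSS of 8 of 9 erythroid and myeloid genes, GATA1 being the exception, and of 3 of 6 lymphoid genes (CD3D, CD3E and CD79A), against 63.9% of all protein-coding genes, so that the lymphoid count is near the background. The labels give the cell type as lymphoblast. Regions near a TSS do not measure expression, and the label was not tested further.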

How the data were processed

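H2A.Z and H2A.Zac were profiled in the WT and ΔTRRAP lines, grouped as labelled. The authors aligned reads to hg38 with Bowtie2 2.4.5, merged replicates, compared the lines with MACS2 2.2.7.1 bdgdiff after scaling to effective depth, and kept regions that lay for 25% or more in reproducible peaks (IDR, 0.05). The score deposited for each region is their log10 likelihood ratio (cutoff, 3). It depends on depth as well as on the change, and its relation to the width of a region was not tested. No filter on mapping quality is named in the methods. Within a mark, 55.7% of the gained H2A.Zac and 46.1% of the gained H2A.Z regions overlap an unchanged region, and none overlaps a lost one, so a gene can carry several classes.

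A region was assigned to a gene when it overlapped the gene or 1 kb to each side by at least 1 bp, or 1 kb to each side of the TSS of the canonical transcript. Genes came from GENCODE 44, and sequences from hg38. The members and lists were chosen with earlier results of these data known. No test was made, since the lists hold no replicate values and depth is unknown. Of 120276 gene counts, 0 differed from bedtools 2.31.1, and the calculation was tested on simulated data. Alternatives were the gene body, 2 kb, the TSS window, 25% of the region, score cutoffs of 5 and 10, and leaving out genes with at least 50% of the 100-base words of their interval elsewhere in hg38. Named genes are the 5 highest scores for each cluster, mark and direction, genes with both classes or opposite marks, genes outside the clusters, testis genes and linker genes; others were chosen after their values were seen. Python 3.11.15, numpy 2.4.6, pandas 2.3.3 and matplotlib 3.10.9 were used. Gene expression and input libraries were not analysed here.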

Additional observations from a re-analysis of the deposited data

How the results depend on the processing

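Of 56 alternative values, 45 stayed within 1.5 times the main count and 11 did not. The counts of chromosome 6 genes with gained H2A.Zac (38 in the main analysis) ran from 28 with a score of at least 10 to 41 with 2 kb to each side. Lost H2A.Zac on chromosome 6 (3 genes) was at 1 gene in the gene body, 5 with 2 kb to each side and 1 with a score of at least 10, and on chromosome 1 (1 gene) at 0 within 1 kb of the TSS and 0 with a score of at least 10. Lost H2A.Z on chromosome 6 (1 gene) was at 2 genes with 2 kb, 0 within 1 kb of the TSS and 0 with a score of at least 10. Gained H2A.Z with a score of at least 10 was left at 1 gene on chromosome 6 (of 8) and 0 on chromosome 1 (of 2). Without the near-identical copies, gained H2A.Zac was at 5 of the 5 remaining chromosome 1 genes (of 11). These changes follow from wider or narrower intervals, stricter cutoffs or fewer genes. No paired analysis was possible because the lists hold merged replicates, and no replicate could be left out. With depth unknown, no error can be attached to a score.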

Other observations

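Of the 17 listed histone genes that are expressed outside S phase or in other ways independent of replication, 15 were found by name. Within 1 kb of the TSS, 7 of the 15 had gained H2A.Zac and 4 had lost it, against 36.6% and 16.6% of all protein-coding genes, and 4 had gained H2A.Z and 1 had lost it, against 13.9% and 6.53%. A list of 15 genes is too short to tell any of these shares from the background. The genes of H2A.Z itself were among those with both marks gained. H2AZ1 had scores of 10.5 for H2A.Zac and 7.44 for H2A.Z, and H2AZ2 had 8.28 and 6.64. MACROH2A1, which encodes a variant with a large globular domain, had 9.95 and 6.93. H3-3B, a gene of the replacement histone H3.3, had gained (26.8) and lost (12.5) H2A.Zac and lost H2A.Z (6.64) near the TSS. Over the gene and its flanks, H3-3B also had gained H2A.Z (6.81). H3-3A, which encodes the same protein, had gained H2A.Zac (8.79) and no lost region of either mark. H2AX, the variant phosphorylated at DNA breaks, had gained H2A.Zac (9.29) and no H2A.Z region. CENPA, the centromeric H3, had lost H2A.Zac (3.69) near the TSS, and over the gene and its flanks it also had gained H2A.Zac (10.1) and gained H2A.Z (7.72).

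Histone pseudogenes of the clusters were examined after the results on the genes were seen. On chromosome 6, 2 of 13 lay on gained H2A.Zac (H4C10P and H2BC16P), 2 on gained H2A.Z (H3C9P and H4C10P) and 9 on no region. On chromosome 1 both, H2BC19P and H2BC20P, lay on gained H2A.Zac. H4C10P, H2BC16P, H2BC19P and H2BC20P each lie within 1 kb of the canonical transcript of a histone gene. None lay on a lost region. No share over all pseudogenes was calculated, so these counts have no background of their own. For scale, the base 100 bp after the TSS lay in gained H2A.Zac in 20.5% of all protein-coding genes. It lay in lost H2A.Zac in 4.27% and in gained H2A.Z in 4.55%.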
